A study of Drosophila melanogaster with 18 samples.

Results

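The 6 genes described here, drk, dock, Csk, Src42A, Nf1 and C3G, encode 2 SH2 adaptors, a pair of tyrosine kinases and 2 regulators of Ras-family GTPases. They were selected by name and function from the 522 genes with at least 2 poly(A) sites in the deposited count tables, with earlier results of these data known. Having 2 counted sites is therefore not a result. Each of the 6 has 1 gene entry with 2 sites, so the 6 genes hold 12 of the 1082 sites and 6 of the 529 entries. All 6 passed the minimum mean of 10 counts per library that was set for testing, as did 525 entries in all.

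In receptor tyrosine kinase signalling, an SH2 domain docks an adaptor onto a phosphorylated tyrosine, and the SH3 domains of the adaptor bring effectors to the membrane. Drk, the fly Grb2, brings the exchange factor Sos to Ras, and Dock, the fly Nck, links receptors to the actin machinery. Csk phosphorylates the C-terminal tyrosine that shuts off Src-family kinases, of which Src42A is one. Neurofibromin, the product of Nf1, is a GTPase-activating protein that turns Ras off, and C3G is an exchange factor that turns on the related GTPase Rap1. In the fly testis, germ cells signal to the somatic cyst cells that enclose them through the EGF receptor and Ras. An mRNA that ends at a site near the stop codon has a short 3′ UTR, and one that ends farther downstream has a long one.

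The 3′ ends of mRNA from whole testes of Drosophila melanogaster were sequenced in 18 libraries, 2 in each of 9 groups. In 8 groups a factor of the cleavage and polyadenylation machinery was knocked down with bamGal4, and the labels name these genotypes PCF11-KD, PCF11-NIG-KD, cbc-KD, CstF64-KD, CstF50-KD, su(f)-KD, CPSF6-KD and PABP2-KD. The cbc-KD label adds BL 77426. The tables the authors deposited call the PCF11-KD group VDRC and the other PCF11 group NIG, so PCF11 was knocked down in 2 separately named ways. The ninth group carried bamGal4 alone. The driver was common to all groups and acts in the germ line, in late spermatogonia and spermatocytes, while the testes also hold somatic cells and germ cells of other stages. Each library came from 150 pairs of testes, taken from progeny that were moved to 29 °C after crosses of 3 days at 25 °C. PCF11 and cbc, the fly Clp1, form cleavage factor II. CstF64, CstF50 and su(f) form the cleavage stimulation factor. PABP2 is the nuclear poly(A)-binding protein, and CPSF6 is a subunit of cleavage factor I.

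Totals ran from 342763 to 819286 counts per library. The knocked-down factors were not among the genes measured, so their remaining levels were not seen. The 2 PABP2-KD libraries differed from each other more than the libraries of any other group, with a chi-square over sites of 59.6 per degree of freedom, against 3.13 to 17.2 in the other groups. Of 7 marker genes of somatic cyst cells and hub 1 was measured, zfh1, at 69.1 to 231 CPM in the knockdown libraries and 456 to 482 CPM in the bamGal4 libraries. The summed level of the 2 measured spermatocyte markers, simj and twe, was 1431 to 3127 CPM in knockdown libraries and 1277 to 1460 CPM in bamGal4 libraries. For the 4 measured spermatid markers it was 8501 to 19752 CPM in knockdown libraries, against 14279 to 14575 CPM in bamGal4 libraries. For the 2 measured markers of early germ cells, Rbp9 and chinmo, it was 1396 to 4415 CPM in knockdown libraries, against 2722 to 2895 CPM in bamGal4 libraries. No measured marker was at 0 counts over all libraries. The part that these levels had in the results for the 6 genes was not tested, and in whole testes fewer cells of a type and less RNA per cell cannot be told apart. Sample numbers in the column headers recur between groups, as in PABP2-KD and bamGal4, and the labels give no runs or dates, so a run and a group cannot be told apart.

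The sites of drk, dock and Csk lie far apart, and those of Src42A and Nf1 lie close together. In the files' BDGP6 coordinates, drk, on the minus strand of 2R, has its proximal site at 13496438 and its distal site at 13495222, which are 540 and 1756 nt past the nearest upstream stop codon. For dock, on the plus strand of 2L, the sites at 832074 and 833241 are 151 and 1318 nt past the stop codon. For Csk, on the minus strand of 3R, the sites at 11634617 and 11633276 are 203 and 1544 nt past it. The distances between the sites of drk, dock and Csk were 1216, 1167 and 1341 nt, longer than in 92.1%, 90.5% and 93.4% of all entries, for which the median distance was 415 nt.

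For Src42A, on the plus strand of 2R, the sites at 6011990 and 6012194 lie 379 and 583 nt past the stop codon and 204 nt apart. For Nf1, on the plus strand of 3R, the sites at 25995401 and 25995732 lie 620 and 951 nt past it and 331 nt apart. For C3G, on the minus strand of X, the sites at 6782106 and 6781416 lie 248 and 938 nt past it and 690 nt apart. In the Ensembl annotation of BDGP6, 11 of the 12 sites fall in an annotated 3′ UTR of their gene, and the distal site of Csk lies 2 nt past the annotated gene end. Within 25 nt of the proximal site no annotated transcript of dock, Csk, Src42A, Nf1 or C3G ends, and 1 of 5 transcripts of drk does. Within 25 nt of the distal site end all 7 transcripts of Csk, 8 of 10 of C3G, 3 of 4 of dock, 3 of 5 of drk and 3 of 5 of Nf1, but none of the 4 of Src42A. Reads were counted without regard to strand, and no other annotated gene covers any of the 12 sites. The nearest neighbour on the opposite strand is CG14712, whose annotated end is 70 nt from the distal site of Csk, followed by CG43116 at 147 nt from that of Nf1 and drongo at 343 nt from that of dock.

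**Figure D1:**
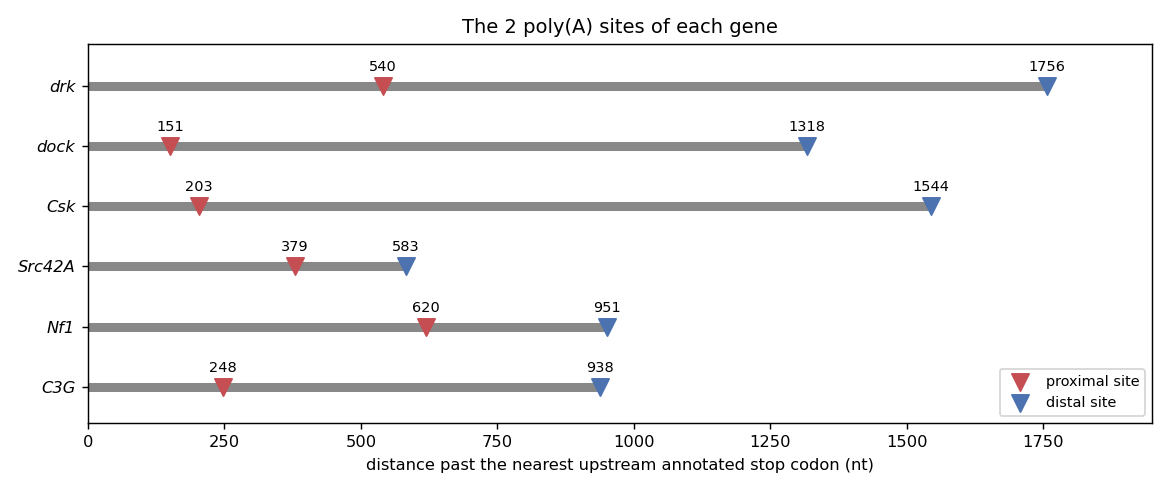
Positions of the 2 poly(A) sites of each gene, as the distance in nt past the nearest upstream annotated stop codon. Red triangles mark proximal and blue triangles distal sites. The sites of drk, dock and Csk are 1167 to 1341 nt apart and those of Src42A only 204 nt.

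The 6 genes did not move as a block. The proximal share is the part of the counts on both sites, in percent, that falls on the proximal one. It was tested as log2 odds of proximal against distal use in edgeR, with adjusted p under 0.05 as the threshold. A positive value is a move toward the proximal site. Over the 48 tests of 6 genes in 8 knockdowns, 27 were moves toward the proximal site, 6 were moves toward the distal site and 15 did not pass. Over all entries, 6.67% to 33.9% moved toward the proximal and 6.86% to 60.6% toward the distal site, depending on the knockdown. These entries come from the authors' own site list, named as bam against spermatocytes, and do not stand for all testis genes. All 8 comparisons share the same 2 bamGal4 libraries, so a control library that stands apart would move all of them. For usage and for totals, it was not counted how many of all entries lie outside both bamGal4 libraries in every knockdown library. Nor was it counted how many pass in all 8 comparisons. The 6 distal moves all belonged to dock.

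**Figure D2:**
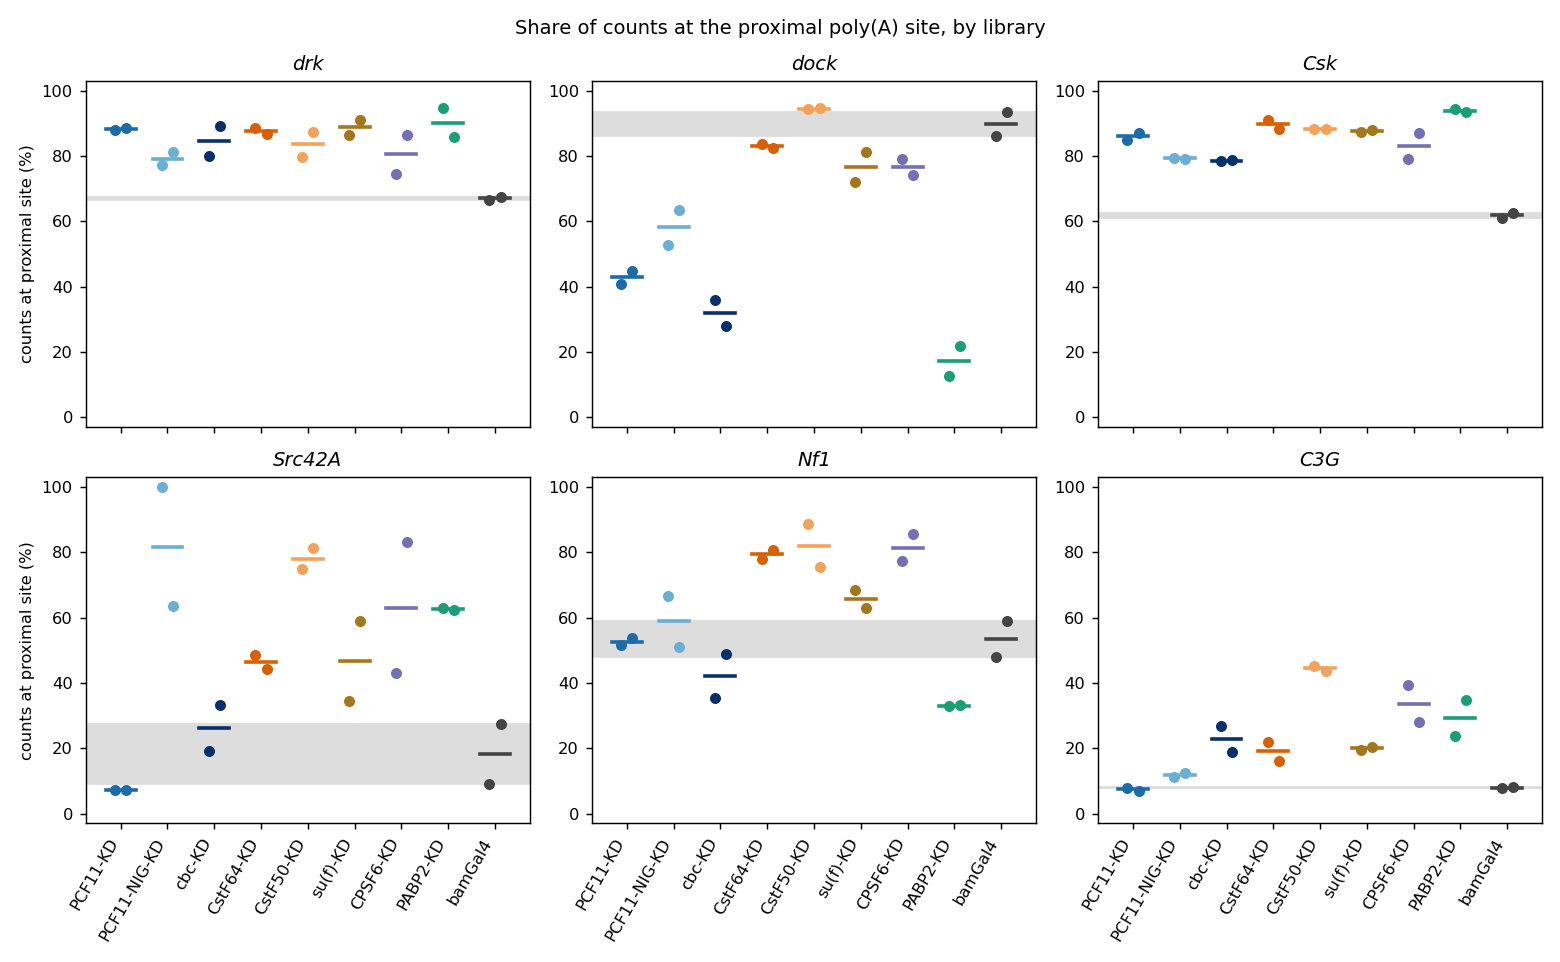
Proximal share in percent (linear axis) in each of 2 libraries per group (points) with the mean (line), for the 6 genes. The grey band spans the 2 bamGal4 libraries. Every knockdown library of Csk lies above the band, and PABP2-KD libraries of dock lie lowest, at 12.7% and 21.9%. The share of all entries that lie wholly above the band was not counted.

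Proximal moves of these genes stood beside very different backgrounds. In PCF11-KD, drk and Csk moved toward the proximal site and dock toward the distal one, where 9.52% of the 525 entries moved toward the proximal and 43.8% toward the distal site. In PCF11-NIG-KD, Csk and Src42A moved toward the proximal site and dock toward the distal one, with 12.4% of entries proximal and 33.9% distal. In cbc-KD, drk, Csk and C3G moved toward the proximal site, as did 6.67% of entries, and dock toward the distal one, as did 60.6%. The median log2 odds were 0.82 over the 6 genes and -1.76 over all entries in cbc-KD, which are descriptions of a chosen list.

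In CstF64-KD, drk, Csk, Nf1 and C3G moved toward the proximal site, where 21.1% of entries moved proximal and 17.7% distal. In CstF50-KD, Csk, Src42A, Nf1 and C3G did so, with 33.9% of entries proximal and 6.86% distal. In su(f)-KD, drk, Csk, Src42A and C3G moved toward the proximal site (11.6% of entries) and dock toward the distal one (26.1%). In CPSF6-KD, Csk, Src42A, Nf1 and C3G moved toward the proximal site (24.2% of entries) and dock toward the distal one (14.7%). In PABP2-KD, drk, Csk, Src42A and C3G moved toward the proximal site (21.7% of entries) and dock toward the distal one (37.3%). Median log2 odds over the 6 genes ran from -0.07 in PCF11-KD to 2.31 in PABP2-KD, against -0.84 and -0.46 over all entries there.

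Totals, the summed counts of both sites scaled to CPM, passed the test in 22 of 48 cases, 12 higher and 10 lower. Over all entries, 18.1% to 32.6% were higher and 17% to 30.1% lower, depending on the knockdown. The count of 22 is therefore not read as particular to these genes. Nf1 was higher in all 8 knockdowns, and Src42A and C3G were lower wherever they passed. In PCF11-KD only Nf1 passed, as a higher total, where 23.6% of entries were higher and 21.9% lower. In PCF11-NIG-KD, Nf1 was higher (20.8% of entries), and dock, Src42A and C3G were lower (22.9%). In cbc-KD, drk, Csk and Nf1 were higher (32.6%), and dock and Src42A were lower (30.1%).

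In CstF64-KD only Nf1 passed, as higher, with 24% of entries higher and 23.6% lower. In CstF50-KD, Nf1 was higher (18.1%), and Src42A and C3G were lower (17.5%). In su(f)-KD, Nf1 was higher (25.3%) and C3G lower (25%). In CPSF6-KD only Nf1 passed, as higher, with 20.6% of entries higher and 17% lower. In PABP2-KD, dock, Csk and Nf1 were higher (32.6%), and Src42A and C3G were lower (29.5%).

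**Figure D3:**
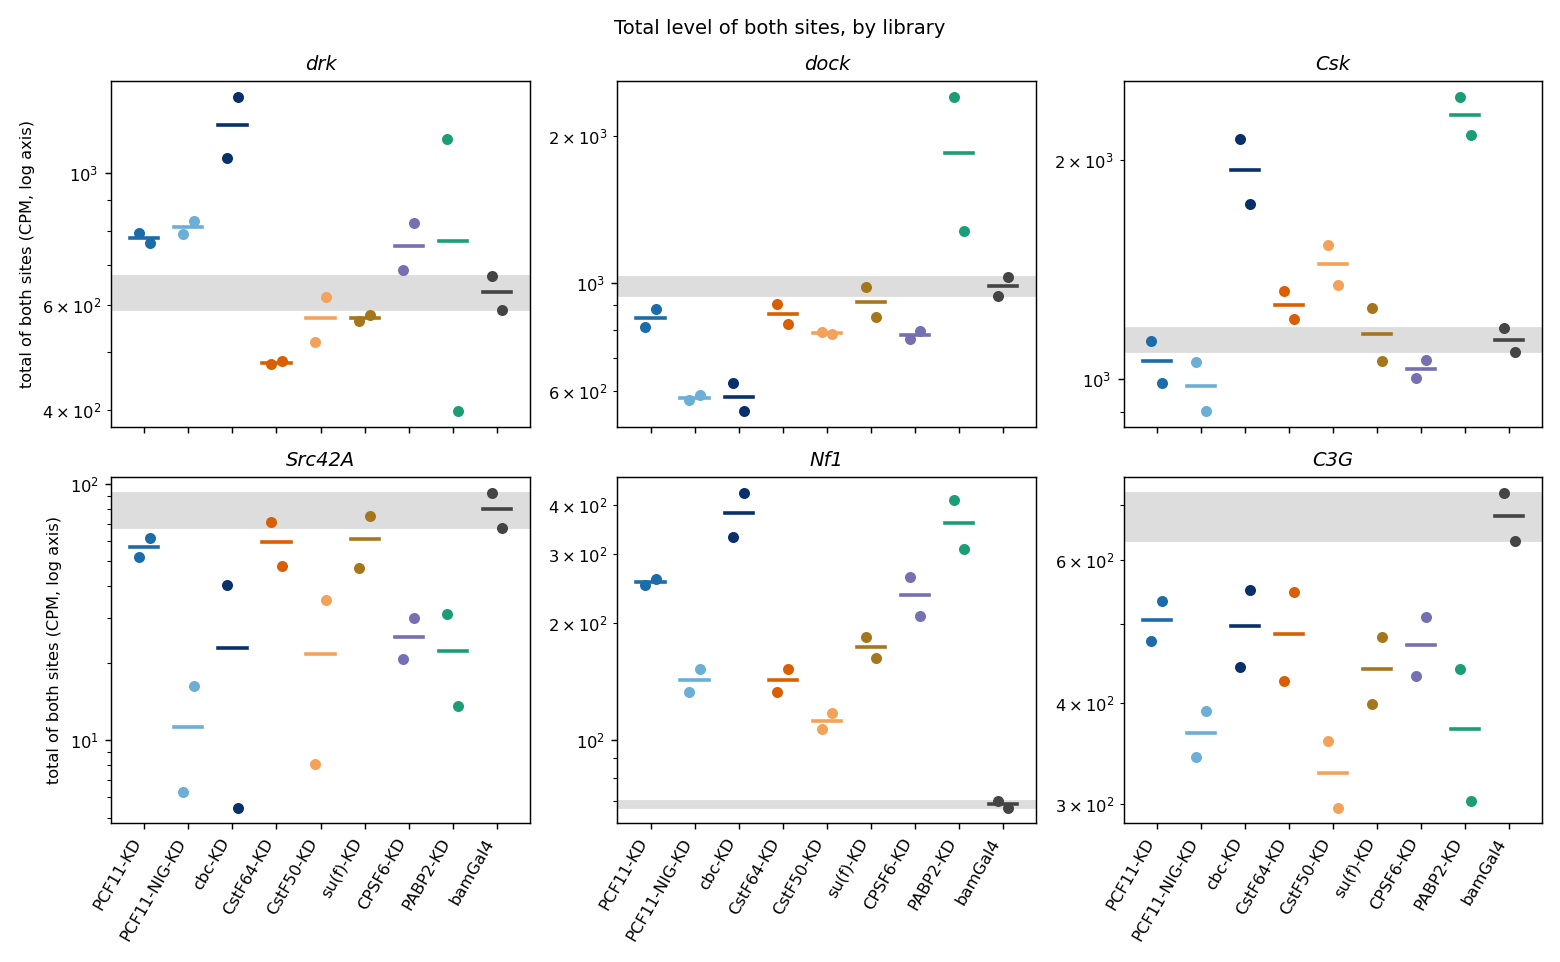
Total level of both sites in CPM (log axis) in each of 2 libraries per group (points) with the mean (line). The grey band spans the 2 bamGal4 libraries. All 16 knockdown libraries of Nf1 lie above the band and all 16 of C3G below it. The share of all entries with such a separation was not counted.

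Drk, the adaptor that recruits Sos, used its proximal site more in every knockdown library than in either bamGal4 library. The proximal share of drk was 88.0% and 88.7% in PCF11-KD, 77.2% and 81.2% in PCF11-NIG-KD, 80.1% and 89.3% in cbc-KD, and 88.5% and 86.7% in CstF64-KD. It was 79.8% and 87.5% in CstF50-KD, 86.6% and 91.0% in su(f)-KD, 74.5% and 86.6% in CPSF6-KD, 94.6% and 85.9% in PABP2-KD, and 66.7% and 67.4% in bamGal4. In the order of their means each knockdown group overlapped the next, and none overlapped bamGal4. It was not counted how many of all entries separate from bamGal4 in this way. Those shares rest on 181 to 992 counts per library, with Wilson 95% intervals 2.8 to 13.1 points wide that cover counting error only.

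In log2 odds drk moved by 1.90 ± 0.52 (SE) in PCF11-KD (edgeR adjusted p = 0.00783), 1.97 ± 0.53 in su(f)-KD (adjusted p = 0.0094) and 2.41 ± 0.53 in PABP2-KD (adjusted p = 0.00158). The drk share in PCF11-KD was known when the genes were chosen, so its p is no independent test. The moves of 1.5 ± 0.50 in cbc-KD (adjusted p = 0.0179) and 1.81 ± 0.54 in CstF64-KD (adjusted p = 0.0176) also passed. Values of 0.91 in PCF11-NIG-KD, 1.36 in CstF50-KD and 1.09 in CPSF6-KD did not pass (adjusted p = 0.151, 0.0533 and 0.115). Without bamGal4 replicate 1 or 2 the calls in cbc-KD (1.48 and 1.53) and CstF64-KD (1.79 and 1.83) were lost, as they were without cbc-KD replicate 2 (0.99), CstF64-KD replicate 1 (1.68) and CstF64-KD replicate 2 (1.92). Without su(f)-KD replicate 2 the su(f)-KD call was lost (1.66), and the PABP2-KD value was 1.58 without PABP2-KD replicate 1 and 3.09 without replicate 2.

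The mean distal level of drk was below that of bamGal4 in all 8 knockdowns. The distal level averaged 90.6 ± 6.31 CPM in PCF11-KD, 59.3 ± 6.59 CPM in CstF64-KD, 63.9 ± 16.8 CPM in su(f)-KD and 59.2 ± 4.21 CPM in PABP2-KD, against 208 ± 22.4 CPM in bamGal4 (SD, n = 2 each). In cbc-KD the distal site was at 0.853 times and the proximal site at 2.42 times bamGal4. There the distal level was 211 CPM in replicate 1 and 144 CPM in replicate 2, against 224 and 192 CPM in bamGal4, so replicate 1 overlapped bamGal4. The total of drk passed only in cbc-KD, at 1061 and 1342 CPM in cbc-KD and 672 and 589 CPM in bamGal4 (log2 change 0.93 ± 0.32, edgeR adjusted p = 0.02). That call was lost without bamGal4 replicate 1 (1.03), bamGal4 replicate 2 (0.84) or cbc-KD replicate 2 (0.75). In PABP2-KD the 2 libraries went apart, with 1142 and 398 CPM against 672 and 589 CPM in bamGal4. There the log2 change was 0.30 ± 0.32, and it was -0.66 without PABP2-KD replicate 1 and 0.85 without PABP2-KD replicate 2, so no direction is given. In the other 6 knockdowns drk totals of 477 to 830 CPM gave log2 changes of -0.39 to 0.36 that did not pass.

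Dock, the SH2 and SH3 adaptor of the Nck type, was the gene of the 6 that moved toward its distal site, and its range of shares was the widest after Src42A. The proximal share of dock was 40.9% and 44.8% in PCF11-KD, 52.9% and 63.4% in PCF11-NIG-KD, 36.0% and 28.1% in cbc-KD, and 83.7% and 82.5% in CstF64-KD. It was 94.4% and 94.7% in CstF50-KD, 72.2% and 81.4% in su(f)-KD, 79.1% and 74.2% in CPSF6-KD, 12.7% and 21.9% in PABP2-KD, and 86.3% and 93.5% in bamGal4. The lowest 4 groups, PABP2-KD, cbc-KD, PCF11-KD and PCF11-NIG-KD in rising order, did not overlap each other. CPSF6-KD and su(f)-KD overlapped each other, CstF64-KD lay below both bamGal4 libraries, and CstF50-KD lay above both.

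The log2 odds of dock were -5.51 ± 0.44 in PABP2-KD (edgeR adjusted p = 2.99e-07), -4.28 ± 0.44 in cbc-KD (adjusted p = 1.40e-06), -3.61 ± 0.44 in PCF11-KD (adjusted p = 1.26e-05) and -2.72 ± 0.44 in PCF11-NIG-KD (adjusted p = 0.000199). These 4 calls were made under all 10 alternatives tried, and in PABP2-KD the value was -5.01 without replicate 1 and -5.95 without replicate 2. Smaller moves of -1.45 ± 0.44 in su(f)-KD (adjusted p = 0.0188) and -1.48 ± 0.45 in CPSF6-KD (adjusted p = 0.0194) also passed. They were lost without bamGal4 replicate 2 (-0.91 and -0.94), without su(f)-KD replicate 1 (-1.06) and without CPSF6-KD replicate 2 (-1.28), and that in CPSF6-KD also when fitted on its 2 groups alone (-1.47). The values of -0.89 in CstF64-KD and 0.91 in CstF50-KD did not pass (adjusted p = 0.129 and 0.148). Without bamGal4 replicate 1 the CstF64-KD value passed (-1.53), and without bamGal4 replicate 2 the CstF50-KD value did (1.45).

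In the 4 knockdowns with the lowest shares, the distal level of dock was above and its proximal level below that of bamGal4. The distal site averaged 1549 ± 782 CPM in PABP2-KD, 483 ± 6.39 CPM in PCF11-KD, 396 ± 4.88 CPM in cbc-KD and 243 ± 39 CPM in PCF11-NIG-KD, against 98 ± 43.6 CPM in bamGal4. As ratios of means these are 15.8, 4.93, 4.04 and 2.48 times bamGal4, and the proximal site was at 0.331, 0.41, 0.213 and 0.382 times it. In CstF50-KD the distal site was lower, at 43.2 ± 1.98 CPM. The total of dock was higher in PABP2-KD, at 2409 and 1276 CPM against 941 and 1026 CPM in bamGal4 (log2 change 0.91 ± 0.22, adjusted p = 0.00207), without PABP2-KD replicate 1 that value was 0.38 and without replicate 2 it was 1.29. Fitted on the 2 groups alone it did not pass (0.95). It was lower in PCF11-NIG-KD, at 574 and 588 CPM (-0.76 ± 0.22, adjusted p = 0.0113), and in cbc-KD, at 623 and 545 CPM (-0.75 ± 0.22, adjusted p = 0.00794). The call in PCF11-NIG-KD was lost without bamGal4 replicate 2 (-0.56) and without PCF11-NIG-KD replicate 1 or 2 (-0.62 and -0.63). The call in cbc-KD was lost without cbc-KD replicate 2 (-0.66) and with library totals as the only scaling (-0.42), under which the median of all entries shifted by 0.33.

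**Figure D4:**
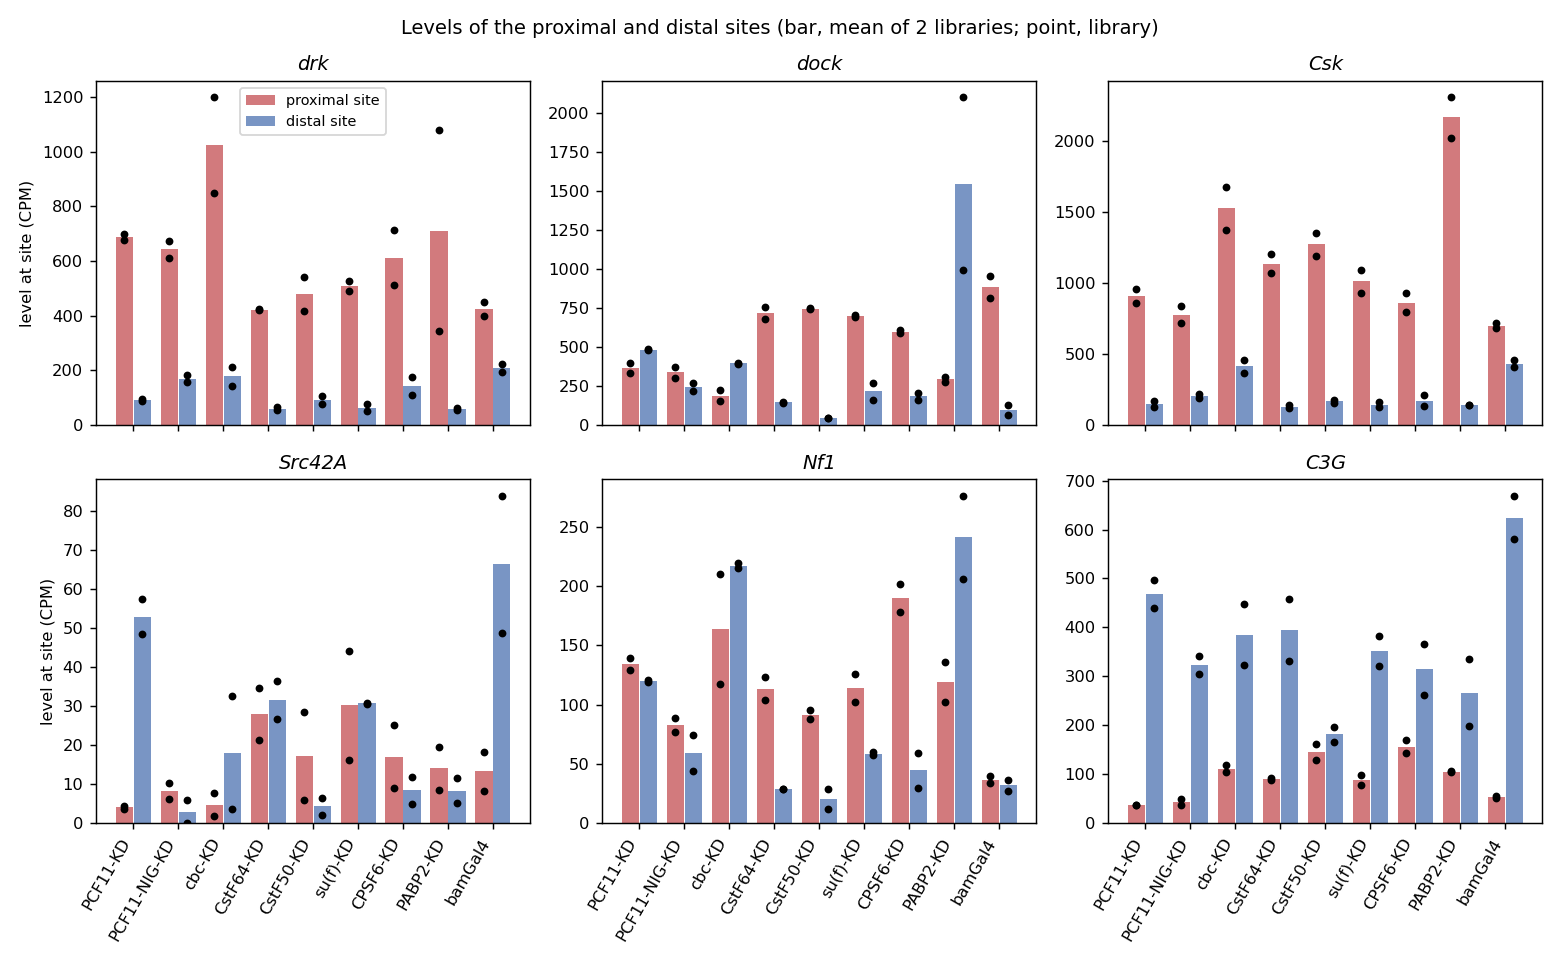
Level of the proximal (red) and distal (blue) site in CPM (linear axes from 0), as the mean of 2 libraries (bar) and each library (point). In PABP2-KD the distal bar of dock stands at 1549 CPM, against 98 CPM in bamGal4, while the distal bar of Csk stands at 139 CPM, against 431 CPM.

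Csk, the kinase that holds Src-family kinases inactive, moved toward its proximal site in all 8 knockdowns. The proximal share of Csk was 85.0% and 87.2% in PCF11-KD, 79.4% and 79.2% in PCF11-NIG-KD, 78.5% and 78.8% in cbc-KD, and 91.2% and 88.3% in CstF64-KD. It was 88.4% and 88.4% in CstF50-KD, 87.3% and 88.0% in su(f)-KD, 79.2% and 87.2% in CPSF6-KD, 94.4% and 93.5% in PABP2-KD, and 61.1% and 62.6% in bamGal4. All 16 knockdown libraries lay above both bamGal4 libraries, and PABP2-KD lay above all other groups. How many of all entries separate in this way, or pass in all 8 knockdowns, was not counted. The separation is therefore not read as particular to Csk. The zfh1 level was also outside its bamGal4 range in all 16 knockdown libraries, and its part in this result was not tested.

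The log2 odds of Csk were 3.26 ± 0.26 in PABP2-KD (edgeR adjusted p = 2.99e-07), 2.45 ± 0.27 in CstF64-KD (adjusted p = 9.62e-06), 2.23 ± 0.26 in CstF50-KD (adjusted p = 6.35e-05) and 2.12 ± 0.26 in su(f)-KD (adjusted p = 2.20e-05). They were 1.93 ± 0.26 in PCF11-KD (adjusted p = 3.86e-05), 1.65 ± 0.26 in CPSF6-KD (adjusted p = 0.000383), 1.24 ± 0.26 in PCF11-NIG-KD (adjusted p = 0.00142) and 1.18 ± 0.25 in cbc-KD (adjusted p = 0.000989). All 8 calls were made under each of the 10 alternatives, whose largest adjusted p was 0.0225, and in PABP2-KD the value was 3.14 without replicate 1 and 3.37 without replicate 2. With 337 to 2120 counts per library, Csk had the deepest counts of the 6 genes.

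The distal site of Csk was lower than in bamGal4 in 7 knockdowns and near it in the eighth. Its level averaged 129 to 202 CPM in those 7 groups and 413 ± 63.7 CPM in cbc-KD, against 431 ± 35.6 CPM in bamGal4. The total of Csk was higher in cbc-KD, at 2135 and 1738 CPM (log2 change 0.78 ± 0.15, adjusted p = 0.000384), and in PABP2-KD, at 2440 and 2163 CPM (1.03 ± 0.15, adjusted p = 3.69e-05), against 1173 and 1087 CPM in bamGal4. In both groups the rise was at the proximal site, which was at 2.18 times its bamGal4 level in cbc-KD and 3.09 times in PABP2-KD. The total in PABP2-KD changed by 0.94 without replicate 1 and by 1.11 without replicate 2. The other 6 groups, with totals of 902 to 1527 CPM, had log2 changes of -0.21 to 0.35 that did not pass.

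Src42A, a Src-family kinase and a target of Csk, was the least counted of the 6, with 3 to 39 counts per library, so its shares are coarse. The proximal share of Src42A was 7.14% and 7.14% in PCF11-KD (2 of 28 counts in each library), 100% and 63.6% in PCF11-NIG-KD (5 of 5 and 7 of 11), and 19.0% and 33.3% in cbc-KD (4 of 21 and 1 of 3). It was 48.7% and 44.4% in CstF64-KD, 75% and 81.2% in CstF50-KD, and 34.6% and 59.0% in su(f)-KD. It was 42.9% and 83.3% in CPSF6-KD, 63.0% and 62.5% in PABP2-KD, and 9.09% and 27.3% in bamGal4. Wilson 95% intervals were 20.5 to 73 points wide. The 2 bamGal4 libraries themselves hold 3 of 33 and 6 of 22 counts at the proximal site, and cbc-KD overlapped them.

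Moves of Src42A toward the proximal site passed in CstF50-KD (log2 odds 4.21 ± 1.04, edgeR adjusted p = 0.0067), PCF11-NIG-KD (3.85 ± 1.06, adjusted p = 0.00947), PABP2-KD (3.04 ± 0.89, adjusted p = 0.00997), CPSF6-KD (3.34 ± 1.01, adjusted p = 0.0196) and su(f)-KD (2.19 ± 0.81, adjusted p = 0.0468). All 5 were lost without bamGal4 replicate 1, which left values of 3.32, 2.96, 2.14, 2.45 and 1.30. They were also lost without CstF50-KD replicate 2 (3.76), PABP2-KD replicate 1 (3.01), CPSF6-KD replicate 2 (1.89) or su(f)-KD replicate 2 (1.39), each in its own comparison. Fitted on the 2 groups alone, the calls in CPSF6-KD (3.33), PABP2-KD (3.03) and su(f)-KD (2.23) were lost, and DESeq2 did not make that in su(f)-KD (2.16). In PABP2-KD the value was 3.06 without replicate 2, and without PCF11-NIG-KD replicate 2 the value there was 6.98. In PCF11-NIG-KD replicate 1 the distal site had 0 of 5 counts, where 3 counts would be a share of 60%. In CstF64-KD the value of 2.13 did not pass (adjusted p = 0.0571) and did so without bamGal4 replicate 2 (3.12). Values of -1.33 in PCF11-KD and 0.45 in cbc-KD did not pass either.

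The total of Src42A was lower in 4 knockdowns. It covers the counted sites only, and the distal one lies upstream of the annotated gene end, so ends beyond it were not seen. It was 6.32 and 16.3 CPM in PCF11-NIG-KD, 40.3 and 5.47 CPM in cbc-KD, 8.11 and 35.2 CPM in CstF50-KD, and 31.1 and 13.6 CPM in PABP2-KD, against 92.4 and 67.2 CPM in bamGal4. Log2 changes there were -2.84 ± 0.70 (edgeR adjusted p = 0.00434), -1.82 ± 0.66 (adjusted p = 0.0255), -1.90 ± 0.68 (adjusted p = 0.0423) and -1.76 ± 0.62 (adjusted p = 0.0229), in the same order of groups. Each of these calls was lost without a library of its own knockdown, namely PCF11-NIG-KD replicate 1 (-2.16), cbc-KD replicate 2 (-0.99), CstF50-KD replicate 1 (-1.25) and PABP2-KD replicate 2 (-1.36). Without replicate 1 the value was -3.81 in cbc-KD and -2.53 in PABP2-KD, and without replicate 2 it was -3.23 in CstF50-KD. With library totals as the only scaling the call in cbc-KD was lost (-1.49). The calls in cbc-KD, CstF50-KD and PABP2-KD were lost as well without bamGal4 replicate 1 (-1.56, -1.65 and -1.51), and that in CstF50-KD without bamGal4 replicate 2 (-2.05). CPSF6-KD, at 20.8 and 30.1 CPM, had a log2 change of -1.63 that did not pass (adjusted p = 0.0761), and PCF11-KD, CstF64-KD and su(f)-KD, at 46.9 to 75.1 CPM, had changes of -0.40 to -0.49.

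Nf1, the Ras GTPase-activating protein, had a higher total in every knockdown library than in either bamGal4 library. The share of all entries that did so, or that passed in every knockdown, was not counted. Its total was 250 and 258 CPM in PCF11-KD, 133 and 152 CPM in PCF11-NIG-KD, 332 and 429 CPM in cbc-KD, and 133 and 152 CPM in CstF64-KD. It was 107 and 117 CPM in CstF50-KD, 184 and 162 CPM in su(f)-KD, 262 and 208 CPM in CPSF6-KD, 412 and 308 CPM in PABP2-KD, and 70.0 and 67.2 CPM in bamGal4. The cbc-KD and PABP2-KD libraries were highest and overlapped each other, and the CstF50-KD libraries lay closest to bamGal4. The bamGal4 values rest on 25 and 22 counts. As with Csk, zfh1 was outside its bamGal4 range in the same 16 libraries, and its part in this was not tested.

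The log2 changes of the Nf1 total were 2.47 ± 0.23 in cbc-KD (edgeR adjusted p = 3.63e-07), 2.39 ± 0.23 in PABP2-KD (adjusted p = 7.07e-07), 1.88 ± 0.23 in PCF11-KD (adjusted p = 2.33e-05) and 1.77 ± 0.24 in CPSF6-KD (adjusted p = 7.02e-05). They were 1.33 ± 0.24 in su(f)-KD (adjusted p = 0.000342), 1.05 ± 0.24 in PCF11-NIG-KD (adjusted p = 0.00267), 1.05 ± 0.24 in CstF64-KD (adjusted p = 0.003) and 0.70 ± 0.25 in CstF50-KD (adjusted p = 0.0407). The first 7 were called under each of the 10 alternatives, and in PABP2-KD the value was 2.16 without replicate 1 and 2.58 without replicate 2. The call in CstF50-KD was lost in 7 of 10, among them without any single library of CstF50-KD or bamGal4 (0.68 to 0.74). The Nf1 total in PCF11-KD was known when the genes were chosen, so its p is no independent test.

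Site usage of Nf1 split the knockdowns. The proximal share of Nf1 was 78.1% and 80.7% in CstF64-KD, 88.7% and 75.5% in CstF50-KD, 77.3% and 85.5% in CPSF6-KD, and 48.0% and 59.1% in bamGal4. In those 3 knockdowns it moved toward the proximal site, by log2 odds of 1.74 ± 0.59 (edgeR adjusted p = 0.0328), 2.00 ± 0.61 (adjusted p = 0.0191) and 1.94 ± 0.58 (adjusted p = 0.0186). All 3 calls were lost without bamGal4 replicate 1 (1.40, 1.67 and 1.6). The call in CstF64-KD was also lost without bamGal4 replicate 2 (2.04) and without CstF64-KD replicate 1 (1.86) or 2 (1.63), that in CstF50-KD without CstF50-KD replicate 1 (1.42), and that in CPSF6-KD without CPSF6-KD replicate 2 (1.57).

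In the other knockdowns the Nf1 share was 51.5% and 53.8% in PCF11-KD, 66.7% and 51.0% in PCF11-NIG-KD, 35.3% and 48.9% in cbc-KD, 68.6% and 63.1% in su(f)-KD, and 33.0% and 33.1% in PABP2-KD. None of these 5 passed, and the largest of them was -1.21 ± 0.53 in PABP2-KD (adjusted p = 0.067), where both libraries lay below bamGal4. The distal site of Nf1 averaged 241 ± 49.6 CPM in PABP2-KD, 217 ± 2.83 CPM in cbc-KD and 120 ± 1.34 CPM in PCF11-KD, against 31.9 ± 6.31 CPM in bamGal4. The proximal site was at 2.26 to 5.19 times its bamGal4 level in the 8 knockdowns, highest in CPSF6-KD.

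C3G, the Rap1 exchange factor, was the gene that used its distal site most in bamGal4. The proximal share of C3G was 7.81% and 7.02% in PCF11-KD, 11.1% and 12.5% in PCF11-NIG-KD, 26.8% and 18.9% in cbc-KD, and 21.9% and 16.1% in CstF64-KD. It was 45.2% and 43.7% in CstF50-KD, 19.5% and 20.4% in su(f)-KD, 39.3% and 28.1% in CPSF6-KD, 23.6% and 34.8% in PABP2-KD, and 7.72% and 8.21% in bamGal4. CstF50-KD stood above all other groups, and PCF11-KD overlapped bamGal4.

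C3G moved toward the proximal site in 6 knockdowns. Its log2 odds were 3.21 ± 0.37 in CstF50-KD (edgeR adjusted p = 6.35e-05), 2.53 ± 0.37 in CPSF6-KD (adjusted p = 0.000205), 2.20 ± 0.37 in PABP2-KD (adjusted p = 0.000205), 1.75 ± 0.37 in cbc-KD (adjusted p = 0.000918), 1.52 ± 0.37 in su(f)-KD (adjusted p = 0.00554) and 1.43 ± 0.38 in CstF64-KD (adjusted p = 0.00919). In PCF11-KD and PCF11-NIG-KD it did not pass, at -0.11 and 0.63 (adjusted p = 0.842 and 0.194). The call in CstF64-KD was lost without bamGal4 replicate 1 (1.38) or CstF64-KD replicate 1 (1.15), and the other 5 were made under all 10 alternatives. In PABP2-KD the value was 2.62 without replicate 1 and 1.83 without replicate 2.

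All 16 knockdown libraries had a lower C3G total than either bamGal4 library. Other entries with such a separation were not counted. The total was 343 and 391 CPM in PCF11-NIG-KD, 359 and 297 CPM in CstF50-KD, 399 and 482 CPM in su(f)-KD, 440 and 303 CPM in PABP2-KD, and 725 and 632 CPM in bamGal4. These 4 groups passed, with log2 changes of -0.89 ± 0.21 (edgeR adjusted p = 0.00306), -1.05 ± 0.21 (adjusted p = 0.00161), -0.63 ± 0.21 (adjusted p = 0.0211) and -0.86 ± 0.21 (adjusted p = 0.00222). In PCF11-KD, cbc-KD, CstF64-KD and CPSF6-KD the totals were 425 to 551 CPM and the changes, -0.43 to -0.53, did not pass. The call in PCF11-NIG-KD was lost without PCF11-NIG-KD replicate 1 (-0.68). That in su(f)-KD was lost without bamGal4 replicate 1 (-0.52) or 2 (-0.66), without su(f)-KD replicate 1 (-0.50), and with library totals as the only scaling (-0.51). In PABP2-KD the change was -1.16 without replicate 1 and -0.63 without replicate 2, and it did not pass when fitted on the 2 groups alone (-0.82). The distal site of C3G was at 0.291 times its bamGal4 level in CstF50-KD, while the proximal site was at 2.71 times.

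**Figure D5:**
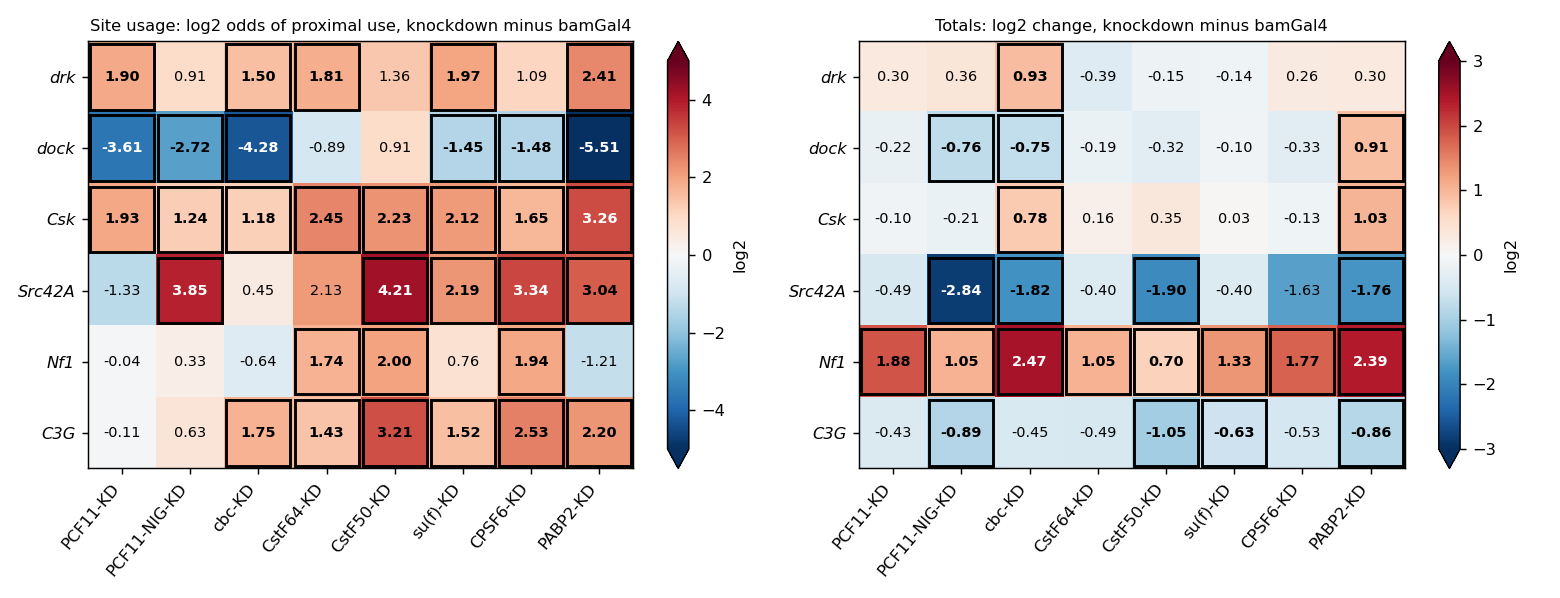
Change of site usage (left, log2 odds of proximal use) and of totals (right, log2 change) for each gene and knockdown, knockdown minus bamGal4, from edgeR. Outlined cells passed an adjusted p of 0.05. Csk is outlined throughout on the left, Nf1 throughout on the right, and dock is the only gene with outlined negative values on the left.

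The direct comparisons between knockdowns asked whether lines against the same factor, or subunits of the same complex, gave different values. PCF11-KD and PCF11-NIG-KD, the 2 genotypes against PCF11, differed in site usage at 1 of the 6 genes, Src42A, whose use was more distal in PCF11-KD (log2 odds -5.18 ± 1.13, edgeR adjusted p = 0.00481), as 19.2% of entries were. That difference rests on 56 counts in PCF11-KD and 16 counts in PCF11-NIG-KD, and without PCF11-NIG-KD replicate 2 it was -8.31. Totals of Src42A were 52.2 and 61.8 CPM in PCF11-KD, against 6.32 and 16.3 CPM in PCF11-NIG-KD (log2 difference 2.34 ± 0.70, adjusted p = 0.041), and those of Nf1 were higher in PCF11-KD too (0.84 ± 0.20, adjusted p = 0.013), as were 9.33% of entries. Both differences in totals were lost without any 1 of the 4 libraries, at 1.73 to 3.04 for Src42A and 0.69 to 0.86 for Nf1. That of Nf1 was also lost in DESeq2 (0.77) and that of Src42A with library totals as the only scaling (2.35).

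The 2 subunits of cleavage factor II differed at C3G, where cbc-KD gave more proximal use than PCF11-KD (log2 odds 1.86 ± 0.37, edgeR adjusted p = 0.000927), as at 5.52% of entries. Csk was less proximal in cbc-KD than in PCF11-KD (-0.75 ± 0.26, adjusted p = 0.0274), as were 45.3% of entries. That second difference was lost without cbc-KD replicate 1 (-0.73) or 2 (-0.76) and without PCF11-KD replicate 2 (-0.61). The totals of Csk (0.87 ± 0.15, adjusted p = 0.000267) and Nf1 (0.58 ± 0.19, adjusted p = 0.0211) were higher in cbc-KD than in PCF11-KD, as were 25.7% of entries. The Nf1 difference was lost in DESeq2 (0.56), without cbc-KD replicate 2 (0.39) and without PCF11-KD replicate 1 (0.56) or 2 (0.54).

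Within the cleavage stimulation factor, CstF50-KD stood apart at dock and C3G. Use of dock was more distal in su(f)-KD than in CstF50-KD (log2 odds -2.36 ± 0.45, edgeR adjusted p = 0.000833) and so was use of C3G (-1.68 ± 0.35, adjusted p = 0.00148), as were 45.5% of entries. CstF64-KD gave more distal use than CstF50-KD at the same 2 genes (dock -1.80 ± 0.46, adjusted p = 0.00854, and C3G -1.77 ± 0.35, adjusted p = 0.00165), as at 28.8% of entries. These 4 calls were also made in DESeq2 and without each of the 4 libraries of their comparison in turn. For su(f)-KD against CstF64-KD edgeR called 0 of 6 genes in usage, with 0 at an unadjusted p under 0.05 and 0 in DESeq2, where 0% of entries moved proximal and 5.71% distal.

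The total of Nf1 was higher in su(f)-KD than in CstF50-KD (log2 difference 0.63 ± 0.21, edgeR adjusted p = 0.0273), as were 24.2% of entries, and that of C3G was higher in CstF64-KD than in CstF50-KD (0.56 ± 0.21, adjusted p = 0.0476), as were 22.1%. Both differences were lost in DESeq2 (0.56 for Nf1 and 0.52 for C3G). The Nf1 difference was also lost without any 1 of the 4 libraries (0.53 to 0.72), and the C3G difference without CstF50-KD replicate 2 (0.45) or CstF64-KD replicate 2 (0.37). Between su(f)-KD and CstF64-KD edgeR called 0 of 6 totals, with 0 at an unadjusted p under 0.05 and 0 in DESeq2, where 2.48% of entries were higher and 4% lower.

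Few other genes of these pathways have 2 sites in the tables. Of 37 listed genes from receptor tyrosine kinases to Ras and MAPK, 3 were measured, in 4 entries. Of 18 listed non-receptor tyrosine kinases and partners 0 were measured. Calls on the measured entries stand beside the same shares over all entries as those given above for each knockdown. Cbl, the ubiquitin ligase that takes active receptors out of signalling, has 2 entries, and the use of Cbl-PB moved toward its proximal site in 7 of 8 knockdowns. The Cbl-PB share averaged 88.9% ± 1.48 in PABP2-KD and 80.7% ± 7.04 in CstF50-KD, against 28.3% ± 18.2 in bamGal4. In cbc-KD its log2 odds of 1.08 did not pass (adjusted p = 0.09). Cbl-PA moved toward the proximal site in 5 knockdowns, CPSF6-KD, CstF50-KD, CstF64-KD, PABP2-KD and PCF11-NIG-KD. Without bamGal4 replicate 1 the Cbl-PA calls in CPSF6-KD (1.77), CstF50-KD (1.85), CstF64-KD (1.54) and PABP2-KD (1.32) were lost. Each was also lost without a library of its own knockdown, namely CPSF6-KD replicate 2 (1.76), CstF50-KD replicate 2 (1.44), CstF64-KD replicate 1 (1.38) and PABP2-KD replicate 1 (0.90). The PABP2-KD call was lost as well without bamGal4 replicate 2 (1.59) and when fitted on the 2 groups alone (1.41), and the Cbl-PB call in su(f)-KD without bamGal4 replicate 2 (1.67). The Cbl-PB total, 43.7 ± 5.59 CPM in bamGal4, was higher in 7 knockdowns, by log2 changes of 0.90 to 3.18, and 0.71 in CstF50-KD did not pass. The lowest of the 7, in PCF11-NIG-KD, was lost without bamGal4 replicate 1 (1.04) or 2 (0.92).

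RasGAP1, another GTPase-activating protein for Ras, moved toward its distal site in 5 knockdowns. It had no proximal counts in PCF11-NIG-KD, CstF50-KD or CPSF6-KD, where 3 counts would be shares of 4.48%, 14.3% and 17.6%, and averaged 39.4% ± 8.57 in bamGal4. The moves in cbc-KD (log2 odds -3.42 ± 0.70, edgeR adjusted p = 0.00136) and PABP2-KD (-3.23 ± 0.67, adjusted p = 0.00207) also passed. The usage call in CstF50-KD was lost without CstF50-KD replicate 1, and that in CPSF6-KD without CPSF6-KD replicate 1 or 2. The RasGAP1 total, 105 ± 5.97 CPM in bamGal4, was lower in CstF50-KD (log2 change -2.24), CPSF6-KD (-2.17), PCF11-NIG-KD (-1.19) and CstF64-KD (-1.0). The call in PCF11-NIG-KD was lost without PCF11-NIG-KD replicate 1 (-0.89), and that in CstF64-KD in DESeq2 (-1.0) and without CstF64-KD replicate 1 (-0.77), bamGal4 replicate 1 (-0.94) or bamGal4 replicate 2 (-1.0). The total of Nf1 was higher in these knockdowns, as it was in all 8. PDZ-GEF, like C3G an exchange factor for Rap1, moved toward its distal site in PCF11-KD (-1.98), cbc-KD (-2.95) and PABP2-KD (-3.44), as dock did. The call in PCF11-KD was lost without PCF11-KD replicate 1 (-1.78) or bamGal4 replicate 2 (-1.64). The PDZ-GEF total was lower in cbc-KD (-0.80), a call lost without bamGal4 replicate 1 (-0.53) or cbc-KD replicate 2 (-0.38), with library totals as the only scaling (-0.48) and when fitted on the 2 groups alone (-0.83). Mkp3, a phosphatase that acts on MAP kinase, passed in none of the 8 knockdowns in usage, and its total was higher in PABP2-KD (1.41 ± 0.27, adjusted p = 0.000384).

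Likeness of pattern was measured as Pearson's r of the log2 odds over the 9 group means, as a description that gives no p. The entries closest to dock were PDZ-GEF (r = 0.974) and tun (r = 0.973), both lowest in PABP2-KD and highest in CstF50-KD, as dock was. The entry closest to drk among all was Csk (r = 0.898), followed by X11L (r = 0.886), and those closest to Csk were siz (r = 0.92) and oys (r = 0.913), all lowest in bamGal4. Closest to Nf1 were LIMK1 (r = 0.944), whose share moved only between 47.8% and 49.6%, and nrv2 (r = 0.927), from 37.1% to 86.7%. For C3G they were numb (r = 0.884) and CG5262 (r = 0.847), and for Src42A CG4266 (r = 0.898) and Spt20 (r = 0.881). Among the 6 genes themselves r was -0.54 between drk and dock and 0.791 between dock and Nf1. All entries were measured in the same libraries, bamGal4 is among the 9 points, and 9 points carry little.

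The authors' deposited tables list 43 of the 48 pairs of gene and knockdown, with an adjusted p under 0.05 in 37, and the 5 unlisted pairs are all of Src42A. Of the 33 calls made here 30 were listed, and in the authors' deposited tables all 30 had an adjusted p under 0.05. In each of the 30 the score PolyAIndex of the authors' deposited table had the sign opposite to the log2 odds given here, so that a positive index stood for more distal use. For dock in PABP2-KD the authors' deposited table gives a PolyAIndex of 2.38 with an adjusted p of 1.6e-06, and for C3G in CstF50-KD one of -2.48 with an adjusted p of 2.42e-07. A further 7 pairs had an adjusted p under 0.05 in the authors' deposited tables and did not pass here.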

How the data were processed

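Per the labels' protocols, the 18 testis libraries of polyadenylated RNA used the Lexogen QuantSeq kit that reads forward into the 3′ end. Bowtie and SAMtools and the builds dm6 and BDGP6 are named in the submitters' processing notes, and versions are not given in the sources used here. Per the run logs deposited with the tables, the authors counted reads with PolyA-miner at their own list of 1098 sites in blocks of 30 nt, without strand and without molecular identifiers. By its name that list sets bam against spermatocytes, so shares over all entries describe the genes on that list. The logs also give a gene minimum of 10 counts, a site minimum share of 0.05, and a filter of 5 counts in a proportion of 0.6 of libraries. In the tables the authors deposited, values are raw counts, 1 row per site. The authors' deposited result tables give an adjusted p-value of a beta-binomial test and a score named PolyAIndex, whose formula they do not state.

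The 8 count tables share the bamGal4 columns and the sites, and were joined into 18 libraries; 0 columns were left unmapped. Proximal and distal are the 2 most counted sites of an entry along its strand. Both measures were tested by quasi-likelihood in edgeR 4.0.16 (R 4.3.3), usage on both sites with a term for each library and totals with TMM scaling. Both fits used all 18 libraries, 525 entries with a mean of at least 10 counts, and Benjamini-Hochberg adjustment within each comparison at 0.05. DESeq2 1.42.0 was an alternative. The fits were tested on simulated data in which a single knockdown changed and all libraries had the same spread. The groups here differ in spread, which that simulation did not cover. CPM and totals are relative to the genes on the site list, and a change common to all of them would not be seen. The labels do not say whether duplicates came from separate crosses, so p-values measure the spread between these libraries, which may be technical. That spread was estimated over all groups together. SEs and p-values in PABP2-KD, whose libraries differed most, therefore draw on the closer duplicates of other groups. For Csk usage in PABP2-KD, edgeR gave an adjusted p of 2.99e-07 over all libraries and 0.00712 on the 2 groups alone.

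The members and lists were chosen with earlier results of these data known, among them the drk share and Nf1 total in PCF11-KD. Beside the members, the text names for each the 2 entries with the highest r, the measured entries of the pathway lists except 1 that is not reported here, the marker genes measured and genes annotated near a site. The sequence around the sites was not used here.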

Additional observations from a re-analysis of the deposited data

Results flagged for a closer look

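At 3 values the 2 genotypes that target the same gene, PCF11-KD and PCF11-NIG-KD, differed past the threshold in a direct edgeR test. The log2 odds of proximal use of Src42A differed by -5.18, with shares of 7.14% ± 0 in PCF11-KD and 81.8% ± 25.7 in PCF11-NIG-KD. These shares rest on 2 of 28 counts in each PCF11-KD library, and on 5 of 5 and 7 of 11 counts in PCF11-NIG-KD. The total of Src42A differed by 2.34 on the log2 scale, at 57 ± 6.82 CPM in PCF11-KD and 11.3 ± 7.08 CPM in PCF11-NIG-KD. The total of Nf1 differed by 0.84, at 254 ± 6.09 CPM in PCF11-KD and 142 ± 13.3 CPM in PCF11-NIG-KD. Both differences in totals were lost without any single library of these groups, at 1.73 to 3.04 for Src42A and 0.69 to 0.86 for Nf1. No cause of these differences was tested.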

How the results depend on the processing

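The 33 usage calls numbered 28 to 34 under the other tests, filters and designs and 23 to 33 with 1 library left out; under a minimum mean of 50 counts Src42A was not tested and gave no value. The 22 calls on totals numbered 18 to 27, and 16 to 23 with 1 library left out. Between knockdowns the 7 usage calls numbered 6 to 8 with 1 library left out, and the 6 calls on totals numbered 2 in DESeq2 and 3 to 7 with 1 library left out, 3 without either PCF11-KD library. Values that had not passed and changed sign were the Csk total in su(f)-KD (-0.01 with DESeq2 size factors and in DESeq2) and the dock total in su(f)-KD (0.01 with library totals alone). With 1 library left out, usage spanned -0.44 to 1.44 for Src42A in cbc-KD, -0.13 to 0.81 for Nf1 in PCF11-NIG-KD and -0.37 to 0.27 for Nf1 in PCF11-KD. Totals spanned -0.66 to 0.85 for drk in PABP2-KD, -0.21 to 0.04 for Csk in PCF11-NIG-KD, -0.20 to 0.06 for Csk in PCF11-KD, -0.10 to 0.15 for Csk in su(f)-KD and -0.21 to 0.02 for dock in su(f)-KD. The cause was not tested.

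Library totals as the only scaling shifted the median change of all entries by 0.33 in cbc-KD, 0.11 in su(f)-KD and 0.12 in PABP2-KD, and in cbc-KD gave 222 higher and 110 lower totals, against 171 and 158 with TMM. Counts over all entries moved by over 1.5 times in these cases. Fitted on 2 groups alone, PABP2-KD had 206 called totals, against 326, and 167 usage calls, against 310. In CstF50-KD 187 totals became 112 without CstF50-KD replicate 1 and 114 and 123 without bamGal4 replicates 1 and 2, and 214 usage calls became 128 without bamGal4 replicate 1. In CPSF6-KD 197 totals became 131 without bamGal4 replicate 1, and 204 usage calls became 129 without CPSF6-KD replicate 2 and 134 without bamGal4 replicate 1. In CstF64-KD 204 usage calls became 124 without CstF64-KD replicate 1.

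Replicate numbers 1 and 2 recur in all groups without a stated pairing. Over 36 pairs of groups the deviations of replicate 1 correlated between -0.507 and 0.434 (median 0.0375), over 0.1 in 14. With a replicate block 34 usage calls and 22 calls on totals were made against bamGal4, and 7 and 6 between knockdowns. The block added the calls on usage of Src42A in CstF64-KD (2.20) and on the Csk total in CstF50-KD (0.34), and it lost those on the totals of Src42A in CstF50-KD (-1.90) and between PCF11-KD and PCF11-NIG-KD (2.34), and of C3G between CstF64-KD and CstF50-KD (0.55). Depth limits Src42A most, with 3 to 39 counts per library.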
